A study of Mus musculus with 4 samples.

Results

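Semaphorins are guidance proteins that cells secrete or carry on their surface, and they signal through neuropilins and plexins. The 10 genes described here are 4 secreted semaphorins of class 3 (Sema3a, Sema3c, Sema3e and Sema3f), both neuropilins (Nrp1 and Nrp2) and 4 plexins (Plxna1, Plxnb1, Plxnb2 and Plxnd1). They were selected by Ensembl gene ID, with the symbols that the selection gives, and all 10 are among the 28399 IDs measured. The reference table used here lists all 10 symbols but holds no Ensembl IDs, so the pairing of ID and symbol could not be checked against it.

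In general, a class 3 semaphorin binds a neuropilin, which has little signalling capacity of its own, and a plexin in the same complex carries the signal into the cell. Signalling by the plexin's inner part changes adhesion and the cytoskeleton. Sema3e is an exception, since it binds plexin D1 without a neuropilin, and B-type plexins answer mainly to semaphorins of class 4. The family is best known for steering axons and vessels, and it also acts where epithelial tubes branch.

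Terminal end buds, the bulbous tips that drive duct growth at puberty, were compared with ducts of the same glands. The mice were pubertal C57/BL6 females with no stated genetic change or agent, aged 5 to 6 weeks by one label and killed at 6 to 7 weeks by another, and the tissue came from mammary gland number 4 (inguinal). Each structure was measured on 2 arrays, each representing about 300 to 400 pooled fragments that had been freed by collagenase and microdissection. The submitters call the arrays technical replicates, so the p-values measure spread between arrays and not between mice.

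Values are deposited log2 intensities, on which 1 unit is a 2-fold difference. The array medians lay between 6.20 and 6.41, and the median ID lay 0.11 log2 units above its duct value in terminal end buds. Differences were therefore also computed after quantile normalization, which moved that median to 0.0041, and after subtracting its median from every array, which moved it to -0.0060. Array data have no read depth, and the number of arrays limits the precision. Markers of epithelial, endothelial, stromal and immune cells were not analysed here, because no table used here pairs the other IDs with symbols. In pooled fragments, a larger share of cells of one type and more RNA per cell cannot be told apart.

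The family did not move as a block. Sema3a, Sema3e and Plxnb1 were higher in terminal end buds, Nrp1 and Plxnd1 were lower, and the other five genes lay within 0.23 log2 units of equality on the deposited values. None of the 10 genes was called, meaning an adjusted p under 0.05 from limma over all IDs with at least a 1.5-fold difference, and 0% of all IDs were called. An unadjusted p under 0.05 from limma was reached by 3 genes higher in terminal end buds, against 12.5% of all IDs, and by 1 gene lower, against 7.27% of all IDs. Means were higher in terminal end buds for 8 of the 10 genes, where 59.8% of all IDs were. After quantile normalization that count was 4 of 10, against 50.4% of all IDs, and after median centring it was 5 of 10, against 49.4%. The median difference of the 10 genes was 0.11, the same as for all IDs to 2 decimals.

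**Figure D1:**
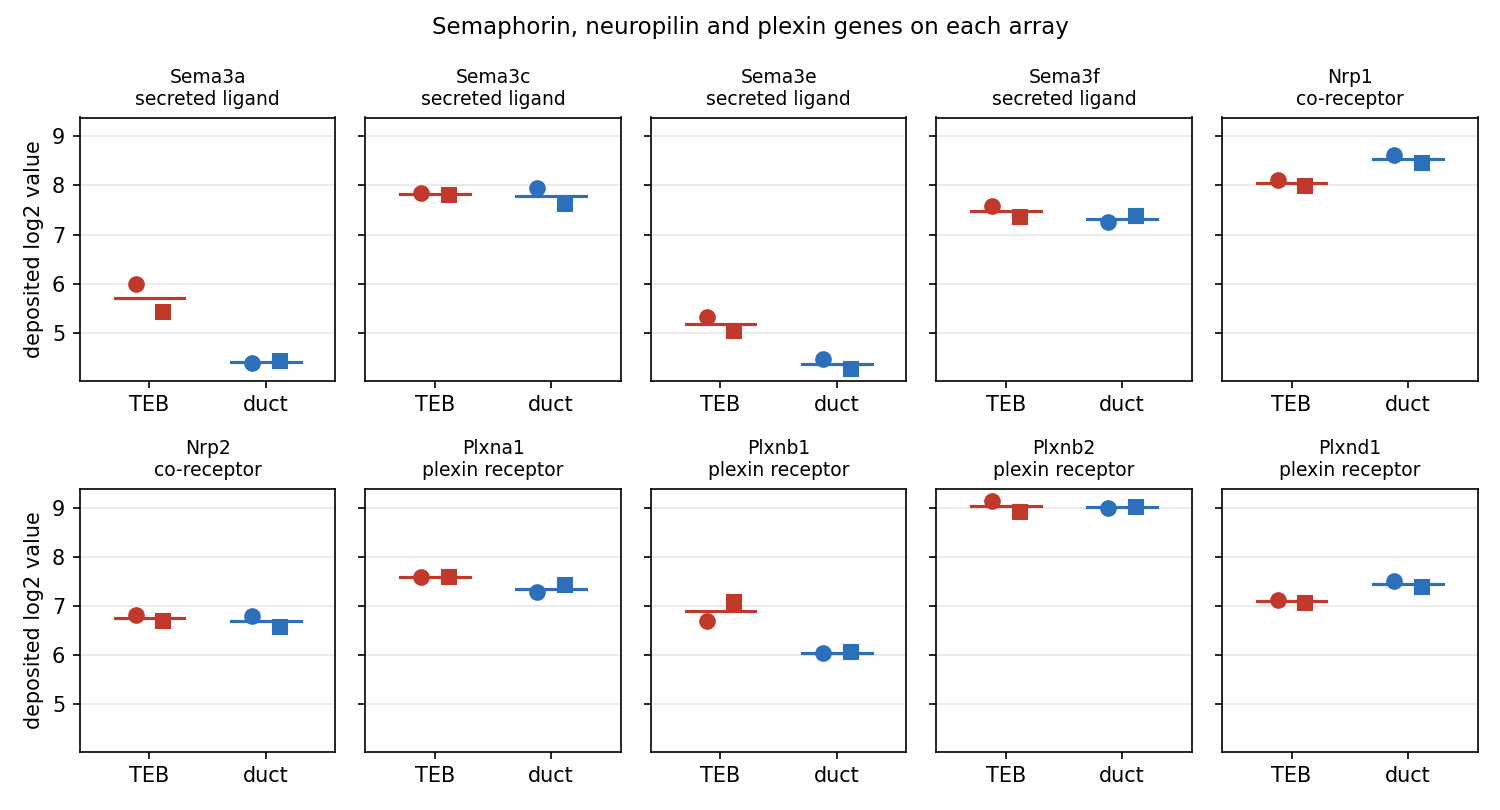
Deposited log2 values of the 10 genes on each array, with terminal end buds (TEB) in red and ducts in blue. Circles are replicate 1, squares are replicate 2 and bars are group means; Sema3a, Sema3e and Plxnb1 lie higher in both terminal end bud arrays than in both duct arrays, as does Plxna1 by a smaller margin, and Nrp1 and Plxnd1 lie lower.

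Among the ligands, Sema3a stood furthest apart. Sema3a (ENSMUSG00000028883) encodes the secreted protein known for collapsing axon growth cones through neuropilin-1 and A-type plexins. Its log2 value was 5.99 and 5.42 in terminal end buds and 4.39 and 4.43 in ducts. Both terminal end bud arrays were above both duct arrays, although the terminal end bud arrays lay 0.57 apart from each other. The log2 difference was 1.29 (SE 0.25, 95% interval 0.62 to 1.97), or 2.45-fold, with an adjusted p of 0.13 from limma. Sema3a was the only one of the 10 genes at least 2-fold apart without overlap, a separation in this direction that 4.43% of all IDs showed. A difference at least as large in the same direction was found for 2.49% of all IDs. The difference was 1.23 after quantile normalization and 1.18 after median centring.

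Sema3e (ENSMUSG00000063531), the ligand of plexin D1, had the same direction at a smaller size. It measured 5.33 and 5.03 log2 units in terminal end buds and 4.46 and 4.27 in ducts, again without overlap. The difference was 0.81 (SE 0.20, 95% interval 0.27 to 1.36), or 1.76-fold, with an adjusted p of 0.17 from limma, and 7.32% of all IDs lay at least as far apart in that direction. After quantile normalization it was 0.77.

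The duct values of Sema3a and Sema3e are dim ones. They lay at percentiles 22.1 to 24.7 of their arrays, below the lower quartiles of 4.48 and 4.49, while the terminal end bud values lay at percentiles 31.2 to 43.6. Detection calls were not used here, so whether the duct values exceed background is unknown and the size of both folds is uncertain.

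The other two ligands overlapped between structures on the deposited values. Sema3c (ENSMUSG00000028780), which binds both neuropilins, measured 7.84 and 7.80 log2 units in terminal end buds and 7.95 and 7.63 in ducts. The duct arrays enclosed the terminal end bud arrays, and the difference was 0.03 with a 95% interval from -0.49 to 0.56. Its sign was negative under both other scalings, at -0.16 after quantile normalization, where both terminal end bud arrays lay below both duct arrays, and -0.08 after median centring. Sema3f (ENSMUSG00000034684), whose preferred co-receptor is neuropilin-2, measured 7.58 and 7.36 in terminal end buds and 7.26 and 7.37 in ducts, which overlap. Its difference was 0.16 with a 95% interval from -0.33 to 0.65, and -0.0021 after quantile normalization.

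Of the neuropilins, Nrp1 was lower in terminal end buds and Nrp2 overlapped. Nrp1 (ENSMUSG00000025810), the co-receptor of Sema3a that also binds vascular endothelial growth factor A, measured 8.11 and 7.99 log2 units in terminal end buds and 8.62 and 8.46 in ducts. Both terminal end bud arrays were below both duct arrays. The difference was -0.50 (SE 0.18, 95% interval -0.97 to -0.02), or 1.41-fold, with an adjusted p of 0.24 from limma. It was -0.69 after quantile normalization and -0.61 after median centring, so the size of the gap depended on the scale and its direction did not. With quantile normalization and a variance prior that follows brightness, Nrp1 was called, at an adjusted p of 0.033 from limma, where 2.67% of all IDs were called lower. Without quantile normalization the same prior called none of the 10 genes, against 5.23% of all IDs in either direction.

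Nrp2 (ENSMUSG00000025969), the co-receptor of Sema3f and of vascular endothelial growth factor C, measured 6.80 and 6.69 log2 units in terminal end buds and 6.80 and 6.56 in ducts. The groups overlapped, and the difference was 0.06 with a 95% interval from -0.44 to 0.56. After quantile normalization it was -0.05.

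Among the plexins, Plxnb1 and Plxnd1 lay on opposite sides. Plexin B1 is a receptor for Sema4d that associates with the receptor tyrosine kinases Met and ErbB2. Plxnb1 (ENSMUSG00000053646) measured 6.70 and 7.07 log2 units in terminal end buds and 6.03 and 6.06 in ducts, without overlap. The difference was 0.84 (SE 0.21, 95% interval 0.28 to 1.39), or 1.79-fold, with an adjusted p of 0.17 from limma, and 6.87% of all IDs lay at least as far apart in that direction. It was 0.72 under either other scaling. When the IDs below the median brightness were left out of the fit, Plxnb1 was called, at an adjusted p of 0.049 from limma. Of the remaining 14200 IDs, 6.86% were called higher. Plxnb1 passed that cut of 6.31 only through terminal end buds, with a mean of 6.89 there and 6.05 in ducts. The filter used the same values as the test, so the call adds no support. The duct arrays lay 0.03 log2 units apart and the terminal end bud arrays 0.37.

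Plxnd1 (ENSMUSG00000030123) encodes plexin D1, the receptor of Sema3e, which is known for its part in the growth of vessels. It measured 7.12 and 7.06 log2 units in terminal end buds and 7.51 and 7.37 in ducts, and both terminal end bud arrays were below both duct arrays. The difference was -0.35 (SE 0.17, 95% interval -0.81 to 0.11), or 1.27-fold, with an adjusted p of 0.34 from limma. It was -0.50 after quantile normalization and -0.47 after median centring, and under both scalings Plxnd1 joined Nrp1 with an unadjusted p under 0.05 from limma. The 10 genes then held 3 such genes higher and 2 lower, against 8.89% and 10.1% of all IDs after quantile normalization and 9.34% and 10.2% after median centring. Endothelial markers were not analysed here, so their part in the lower Nrp1 and Plxnd1 values was not tested.

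The remaining plexins differed by at most 0.23 log2 units on the deposited values, with 95% intervals that include differences in either direction. Plxna1 (ENSMUSG00000030084), whose product pairs with neuropilins to receive class 3 semaphorins, measured 7.58 and 7.58 log2 units in terminal end buds and 7.28 and 7.42 in ducts. These arrays did not overlap, yet the difference was 0.23 with a 95% interval from -0.23 to 0.69, and it was 0.06 after quantile normalization. Plxnb2 (ENSMUSG00000036606), a B-type plexin that binds Sema4c, measured 9.14 and 8.91 in terminal end buds and 8.995 and 9.02 in ducts. The terminal end bud arrays enclosed the duct arrays, and the difference was 0.02 with a 95% interval from -0.47 to 0.50. After quantile normalization the Plxnb2 difference was -0.19 and after median centring it was -0.10. Over the family, 4 genes were higher without overlap, against 33.8% of all IDs, and 2 were lower without overlap, against 19.6%. This balance depended on the scale. After quantile normalization 3 were higher, against 25.6% of all IDs, and 4 lower, against 25.9%, since Plxna1 then overlapped and Sema3c and Plxnb2 lay lower in both terminal end bud arrays. After median centring 3 were higher, against 26.5%, and 2 lower, against 26.0%.

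**Figure D2:**
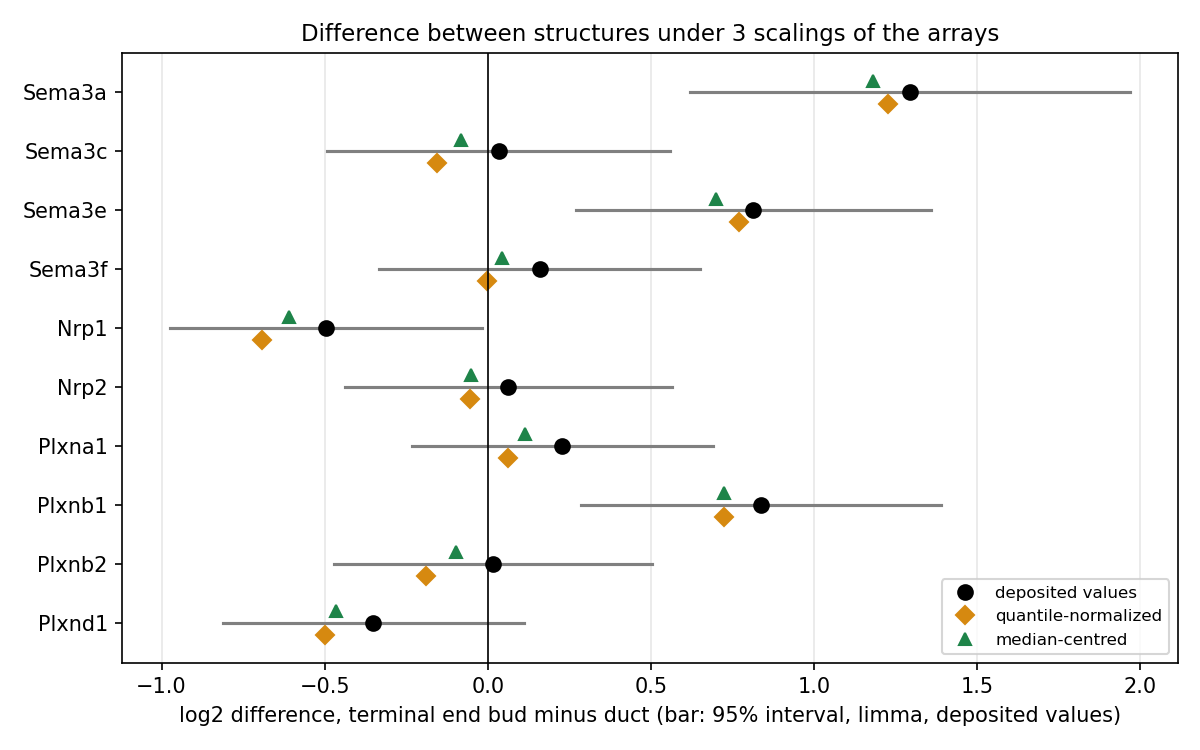
Log2 difference of each gene, terminal end bud minus duct, on the deposited values (circles, with limma's 95% interval), after quantile normalization (diamonds) and after median centring (triangles). Sema3a, Sema3e and Plxnb1 stay above 0 and Nrp1 and Plxnd1 below 0 on all 3 scales, while Sema3c, Sema3f, Nrp2 and Plxnb2 lie on both sides of 0 across the scales.

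**Figure D3:**
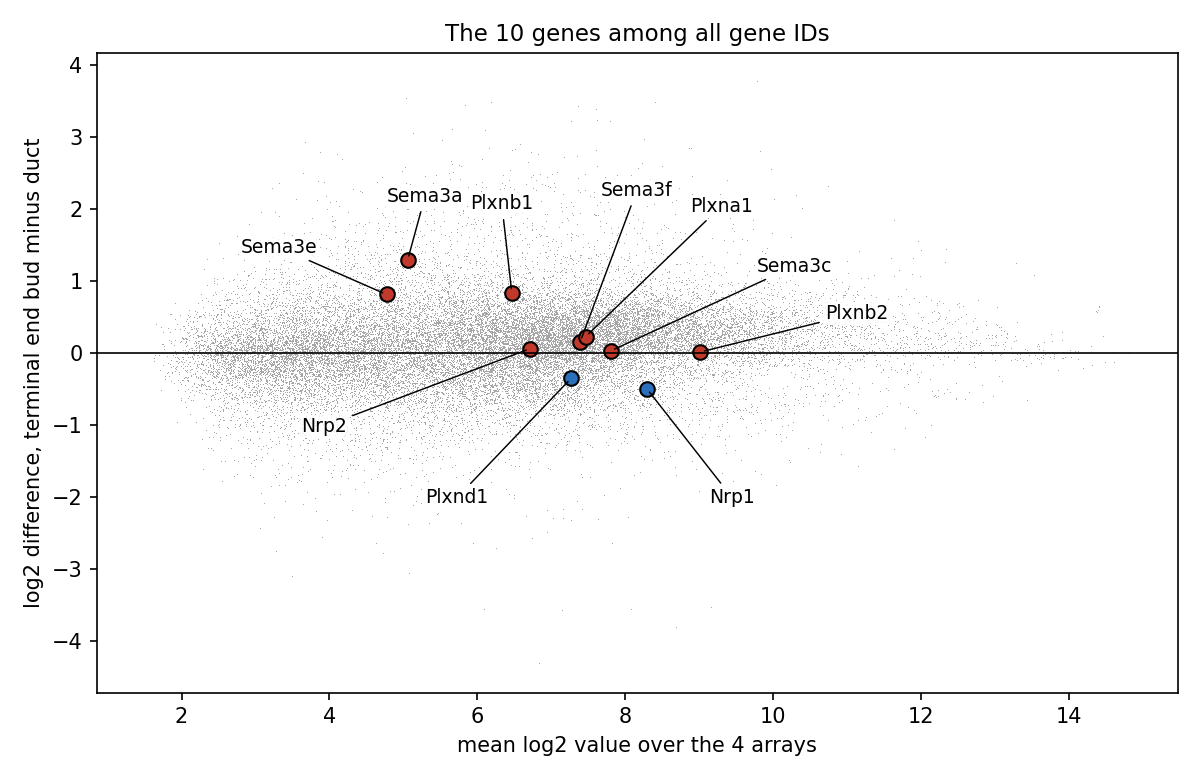
Mean log2 value over the 4 arrays against the log2 difference, terminal end bud minus duct, for all 28399 IDs (grey) and the 10 genes (red where higher in terminal end buds, blue where lower). Sema3a, at 1.29, is the furthest of the 10 from equality, and Sema3a and Sema3e are the dimmest.

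Gene values may rest on unequal amounts of array data. From the decimals of the deposited values, each gene's values equal means of at least a certain number of figures of 5 decimals. That smallest number was 2 for Plxnb1 and 3 for Sema3a and Sema3e, the genes higher in terminal end buds. It was 23 for Nrp1, 35 for Plxnd1, 32 for Plxna1, 16 for Sema3f, 14 for Nrp2, 8 for Plxnb2 and 5 for Sema3c. The residual SD between arrays was 0.29 log2 units for Sema3a, 0.19 for Plxnb1 and 0.18 for Sema3e, against 0.07 to 0.16 for the other seven. Where that number was 1, 12% of IDs were at least 2-fold apart without overlap. The share was 4.67% from 2 to 5, 5.18% from 6 to 15 and 7.37% from 16 to 60. In the same order, the median residual SD of the IDs fell, at 0.36, 0.22, 0.14 and 0.14. Their median log2 level rose, at 5.51, 6.11, 7.30 and 7.51. The part of the averaging in the differences was not tested.

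Partners in signalling were also set against each other on the same array, which cancels any shift of a whole array. A log2 value of one gene minus that of another depends on their probes, so only its change between structures is read. In all, 9 pairs of known partners or paralogs were compared, chosen with the values known. An exact permutation test of 2 arrays against 2 (two-sided) cannot go below p = 0.33, and 0.43 was the smallest value found after Benjamini-Hochberg adjustment over the 9 pairs. Several pairs share a gene, and their changes restate the differences of single genes without a whole-array shift, so no finding rests on them. The changes still depend on the scaling. After quantile normalization, Nrp1 minus Nrp2 differed by -0.64 and Sema3a minus Nrp1 by 1.92, against -0.56 and 1.79 on the deposited values.

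Nrp1 minus Nrp2 was 1.30 and 1.30 in terminal end buds and 1.82 and 1.90 in ducts. The groups did not overlap, and the difference, terminal end bud minus duct, was -0.56 log2 units, with SDs of 0.0059 and 0.05 (n = 2 each; exact permutation p = 0.33). Sema3c minus Nrp2 overlapped between structures, at 1.04 and 1.11 in terminal end buds and 1.15 and 1.07 in ducts.

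For ligands and their receptors, Sema3a minus Nrp1 was -2.12 and -2.57 in terminal end buds and -4.23 and -4.03 in ducts, a difference of 1.79 log2 units (exact permutation p = 0.33). Sema3e minus Plxnd1 was -1.79 and -2.03 in terminal end buds and -3.05 and -3.11 in ducts, a difference of 1.17 log2 units (exact permutation p = 0.33). Both pairs contain the dim duct values of the ligand, so the size of these differences is as uncertain as that of the ligand alone. Sema3c minus Nrp1 differed by 0.53 log2 units, and Sema3f minus Nrp2 overlapped between structures.

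Plxnb1 minus Plxnb2 was -2.44 and -1.84 in terminal end buds and -2.96 and -2.96 in ducts, a difference of 0.82 log2 units. Plxnb1 minus Plxna1 differed by 0.61 and Nrp1 minus Plxnd1, both lower in terminal end buds, by -0.14.

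**Figure D4:**
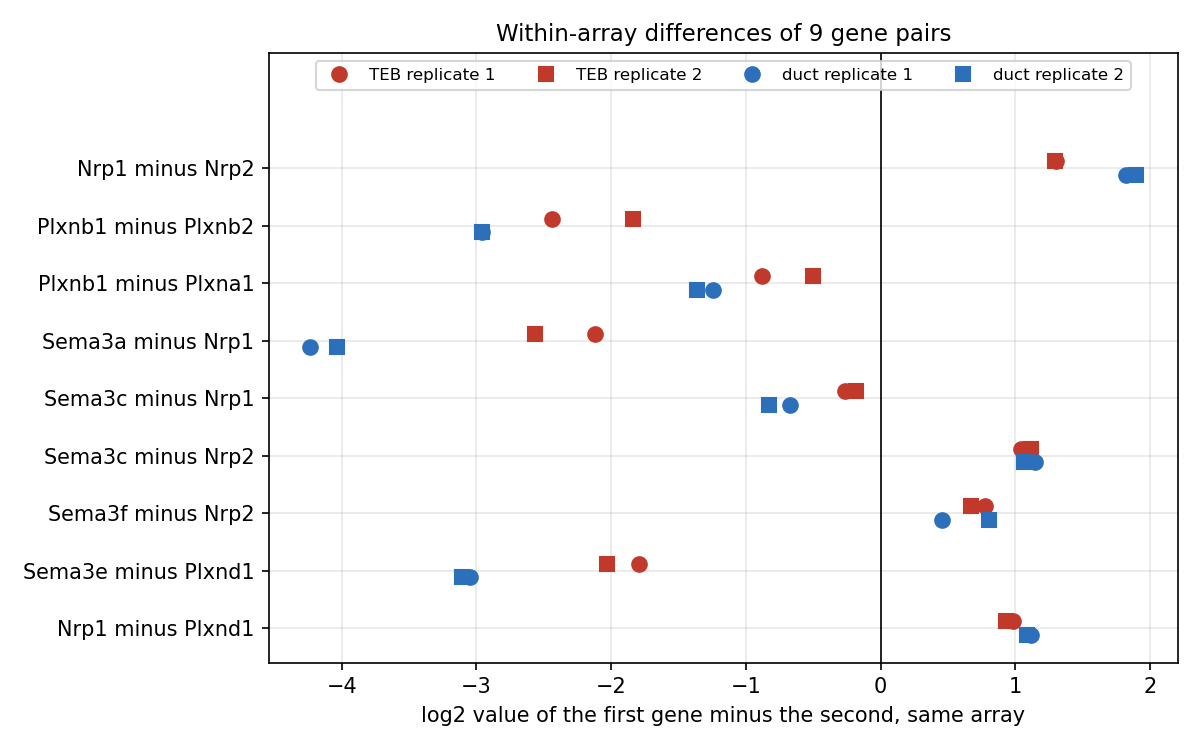
Log2 value of the first gene minus the second on the same array, for 9 pairs, with terminal end buds (TEB) in red and ducts in blue. Circles are replicate 1 and squares replicate 2; the structures overlap for Sema3c minus Nrp2 and Sema3f minus Nrp2, and the pairs were chosen with the values known.

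The sequence before the transcription start is shown for the 5 genes that lay furthest apart, to set the genes higher in terminal end buds beside those lower. RefSeq's table (GRCm38.p6) holds such windows for 8 of the 10 genes, all but Sema3f and Plxna1. The 150 bases just before one RefSeq start of each gene are printed 5′ to 3′ on the gene's strand. Capitals mark the GC box GGGCGG on either strand, the usual binding motif of Sp-family factors. The coordinates are of GRCm38.p6, while the submitters name mm9.
Sema3a, chr5:13396634-13396783, plus strand: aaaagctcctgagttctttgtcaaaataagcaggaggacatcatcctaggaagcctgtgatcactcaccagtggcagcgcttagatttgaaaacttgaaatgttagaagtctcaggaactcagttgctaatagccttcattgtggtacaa
Sema3e, chr5:14025126-14025275, plus strand: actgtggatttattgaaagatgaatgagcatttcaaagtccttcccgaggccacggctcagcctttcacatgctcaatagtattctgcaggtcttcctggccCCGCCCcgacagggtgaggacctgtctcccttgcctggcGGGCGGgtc
Plxnb1, chr9:109095286-109095435, plus strand: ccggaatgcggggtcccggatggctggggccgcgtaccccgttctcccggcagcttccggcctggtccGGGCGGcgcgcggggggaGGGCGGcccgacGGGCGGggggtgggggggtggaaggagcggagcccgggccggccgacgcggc
Nrp1, chr8:128358923-128359072, plus strand: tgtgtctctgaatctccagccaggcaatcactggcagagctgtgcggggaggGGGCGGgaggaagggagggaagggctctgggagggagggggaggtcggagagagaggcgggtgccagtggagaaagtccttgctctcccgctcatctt
Plxnd1, chr6:115995006-115995155, minus strand: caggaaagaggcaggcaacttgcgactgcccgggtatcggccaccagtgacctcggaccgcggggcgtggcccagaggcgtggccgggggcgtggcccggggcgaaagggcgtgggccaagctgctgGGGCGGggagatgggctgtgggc

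The 3 genes higher in terminal end buds differed in their CG pairs and GC boxes before the RefSeq starts shown. Whether these starts are used in mammary tissue was not tested. In the 250 bases before the start, Sema3a held 2 CG pairs and 0 GC boxes, Sema3e held 7 CG pairs and 2 GC boxes, and Plxnb1 held 30 CG pairs and 4 GC boxes. Of the genes lower in terminal end buds, Nrp1 held 11 CG pairs and Plxnd1 held 16, each with 1 GC box. The median over all 32851 windows of that length was 6 CG pairs, and 32.7% held a GC box. Searches for the CCAAT box (CCAAT), the TATA box (TATAAA) and the AP-1 motif (TGANTCA), on both strands, found 0 matches in these 5 windows, against 33.8%, 12.4% and 6.75% of all windows. No match overlapped another in the printed runs, and a match is only a description of the sequence.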

How the data were processed

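RNA of 2 terminal end bud and 2 duct samples was measured on arrays, from 1.5 microg of total RNA each. The authors deposited a log2 value for every ID and array. RMA (background correction, normalization and summary on a log2 scale) and genome build mm9 appear in the submitters' processing notes; versions and gene-level steps are not given in the sources examined. Groups follow the sample titles. Terminal end buds and ducts were compared by limma 3.58.1 under R 4.3.3 (lmFit, eBayes) over all 28399 IDs, with no filter or block, and p-values were adjusted over all IDs by Benjamini-Hochberg. Residual degrees of freedom were 2, to which the prior added 2.51. The script was tested on simulated data.

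The smallest number of averaged figures was sought up to 60, within 0.005 units of the fifth decimal. All 10 genes are named, and the genes, lists and motifs were chosen with earlier results of these data known. Lists of further semaphorins, effectors and cell type markers were not analysed here, since 0 IDs could be paired with a symbol. Same-numbered arrays' deviations from group means correlated across IDs with r = 0.086, and no label ties the numbers, so they were not treated as pairs. Alternatives were other scalings, variance priors, a brightness filter, other thresholds, a replicate block and fits without single arrays.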

Additional observations from a re-analysis of the deposited data

How the results depend on the processing

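Of the 10 genes, 0 were called under quantile normalization, median centring, a brightness-following prior or robust moderation. On the main fit, 0 were called with no fold floor or with an adjusted p under 0.10. The count was 1 with IDs above the median brightness (Plxnb1), a fit without Sema3a and Sema3e. Plxnb1 passed that filter only through its terminal end bud values. The count was also 1 with quantile normalization plus the brightness-following prior (Nrp1). With the brightness filter, the 4 genes with an unadjusted p under 0.05 from limma became 2 and the 1 gene at least 2-fold apart without overlap became 0. With a replicate block the calls stayed at 0, and 3 genes had an unadjusted p under 0.05, Nrp1 no longer among them. The share of all IDs called was not computed for quantile normalization alone, median centring, robust moderation or the block. It is also missing for no fold floor and the 0.10 threshold. Those counts of 0 therefore cannot be read as particular to the 10 genes. Nor was the share of all IDs computed for the counts by unadjusted p with the filter or the block. It was not computed for the 2-fold count with the filter either. The 0.10 threshold was used on the main fit only. With the brightness-following prior, Sema3a and Plxnb1 had adjusted p of 0.0845 and 0.099 from limma. Fits without single arrays leave 1 array in a group, so only their differences are given, below. Such fits assume that the lone array varies like the other group.

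Variance priors, robust moderation, the replicate block and the brightness filter cannot change a difference, so under them its direction was fixed in advance. The quantile-normalized differences are counted once for each prior. With these included, of 108 single-gene differences under alternatives, 94 kept their direction. The 14 others belong to Sema3c (-0.16 with quantile normalization with or without the brightness-following prior, -0.081 centred, -0.13 to 0.19 without single arrays), Sema3f (-0.0021 quantile-normalized, either prior), Nrp2 (-0.054 quantile-normalized with either prior, -0.051 centred, -0.055 to 0.18 without single arrays) and Plxnb2 (-0.19, -0.10, and -0.10 to 0.13 in that order). Without single arrays, the difference ranged from 1.01 to 1.58 for Sema3a, 0.67 to 0.96 for Sema3e, 0.65 to 1.02 for Plxnb1, -0.58 to -0.41 for Nrp1 and -0.42 to -0.28 for Plxnd1. The wider semaphorin list was not run, since its IDs are unnamed here.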
